A study of Mus musculus with 24 samples.

Results

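The early subjective day of mouse liver was described from the 8 RNA-seq libraries harvested at CT2 and CT6, out of 24 libraries in the series. CT is circadian time, counted in hours from the start of the subjective day, which is the rest phase of a nocturnal mouse. At each of the 2 times there were 2 libraries of wild-type (WT) liver and 2 of ΔRRE liver, so that 4 libraries of CT6 were compared with 4 of CT2 with genotype as a term. All mice were male and of the strain C57BL/6. The study's methods for tissue RNA give mice aged 8 to 24 weeks, sampled in constant darkness, with CT projected. The RNA-seq methods do not repeat the age or the lighting. The ΔRRE mice carry a CRISPR-Cas9 deletion, on both alleles, of the ROR/REV-ERB response elements (RREs) of Bmal1; the mutation is in the whole body and not confined to liver. By the study's methods mouse line 1 of the mutants was the default, and the labels name no line. The labels do not say whether the 2 libraries of a group came from separate mice, so the p-values measure only the spread between these samples. Of the 54733 genes in the files, the 11244 whose values averaged 1 FPKM or more across the 24 libraries were tested. FPKM is a count of fragments scaled to the length of the transcript and to the number of fragments mapped in the library. Changes are differences of log2(FPKM + 0.1), CT6 minus CT2.

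The circadian clock of a liver cell is a transcriptional feedback loop. CLOCK and BMAL1 bind E-boxes and activate genes such as the Period genes, the Cryptochrome genes, Nr1d1 and Nr1d2 (REV-ERBα and REV-ERBβ), Ciart and Dbp. PER and CRY proteins then repress CLOCK and BMAL1. DBP, TEF and HLF activate through D-boxes, which NFIL3 (E4BP4) represses. REV-ERB proteins repress, and ROR proteins activate, genes with an RRE, among them Bmal1 itself (listed as Arntl), Npas2, Nfil3 and Cry1.

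The FPKM of the 8 libraries summed to between 554170 and 603914. Libraries of the same group correlated at Pearson's r of 0.961 to 0.970 over the genes tested and libraries of different groups at 0.956 to 0.977, so a library was not closer to its own replicate than to other groups over the transcriptome as a whole. At most 0.0623% of the values over 1 FPKM were identical within a pair. The median log2 change of all genes from CT2 to CT6 was -0.04, and -0.000367 after the libraries were rescaled by the median of ratios.

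Arntl, the gene whose RREs are deleted, was examined first. In WT it was at 12.6 and 13.2 FPKM at CT2 and at 2.42 and 2.86 FPKM at CT6. In ΔRRE it was at 3.58 and 3.16 FPKM at CT2 and at 3.01 and 4.21 FPKM at CT6. The groups of WT were far apart, and those of ΔRRE overlapped. Arntl fell in WT (log2 change -2.25, SE 0.213, adjusted p = 0.0175 by limma), and its log2 change in ΔRRE was 0.08 (adjusted p = 0.962). The difference between these changes was 2.33 on the log2 scale (SE 0.302, unadjusted p = 5.95e-05 by limma). Its adjusted p was 0.223, so it did not pass the test over all genes.

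With genotype as a term, 1 gene rose and 1 gene fell from CT2 to CT6 at an adjusted p under 0.05, each 0.00889% of the genes tested. The gene that rose was Dbp, the D-box activator. The gene that fell was Gm26712, a pseudogene whose values are described at the end. At an unadjusted p under 0.05, 379 genes (3.37%) were higher and 835 genes (7.43%) lower, 1214 in all, where 562.2 would be expected if no gene changed. After rescaling by the median of ratios these counts were 524 and 640. A count that uses no model gave the same split. In 223 genes (1.98%) the 4 libraries of CT6 were all above the 4 of CT2, and in 504 genes (4.48%) they were all below. Of these genes 30.7% were higher, against 48.3% after rescaling by the median of ratios (340 higher and 364 lower) and 24.4% after scaling to a common sum. The balance of rises and falls therefore depended on the scaling of the libraries.

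When the spread was estimated from all 24 libraries, 8 genes (0.0711%) rose and 22 genes (0.196%) fell from CT2 to CT6, and 28 of these 30 are described here. This fit has 1 mean for each genotype and time and compares the average of both genotypes. Of the 28 genes, 27 had the same sign of change in both genotypes, with Arntl as the exception, beside 60.1% of all genes. In 24 of the 28 the CT6 and CT2 libraries did not overlap, beside 1.98% of all genes higher and 4.48% lower. A log2 change of at least 1 in size was seen in 19. The choice rested on the average change in these same libraries, which favours both a shared sign and a lack of overlap. The genes that passed with the spread of 8 libraries were both among the 30.

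Dbp showed the largest rise among the genes called. It was at 0.836 and 0.261 FPKM in WT and at 0.367 and 0.679 FPKM in ΔRRE at CT2. At CT6 it was at 43.8 and 22.7 FPKM in WT and at 20.0 and 7.71 FPKM in ΔRRE. The means were 0.535 ± 0.268 FPKM at CT2 and 23.6 ± 15 FPKM at CT6 (SD, n = 4). The log2 change was 5.07 (SE 0.466, adjusted p = 0.0127), which is 33.7-fold between the means of log2(FPKM + 0.1). Without WT CT2 replicate 1 the adjusted p was 0.0631, without WT CT6 replicate 2 it was 0.0673 and without ΔRRE CT6 replicate 1 it was 0.0866, with log2 changes of 5.21, 5.12 and 4.94.

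The E-box and D-box list held 12 clock genes, of which 11 were tested. In 8 of the 11 the CT6 libraries were all above the CT2 libraries, where 1.98% of all genes were, and in none were they all below. The median log2 change of the list was 1.66, beside -0.04 for all genes. It was 2.01 in WT and 1.37 in ΔRRE. Under the fit of 24 libraries 6 of the 11 rose, namely Dbp, Tef, Nr1d1, Nr1d2, Per3 and Ciart. The list was chosen with the known times of its genes in mind.

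Tef, which encodes another D-box activator, was at 6.58, 6.39, 7.64 and 8.4 FPKM in the WT and ΔRRE libraries of CT2 and at 34.6, 20.3, 24.3 and 16.2 FPKM in those of CT6. Its lowest CT6 library was above its highest CT2 library, with a log2 change of 1.66 (SE 0.162, adjusted p = 0.000117 over 24 libraries). The third D-box activator gene, Hlf, was at 6.81 to 8.93 FPKM at CT2 and at 6.35 to 11 FPKM at CT6, with a log2 change close to 0 and overlapping groups.

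The REV-ERB genes encode the repressors that act on RREs. Nr1d1 was at 20.8 and 3.89 FPKM in WT and at 12.4 and 2.81 FPKM in ΔRRE at CT2, and rose to 66.8, 32.8, 48.2 and 33.3 FPKM at CT6. Nr1d2 was at 8.4, 3.27, 9.96 and 2.14 FPKM at CT2 and rose to 24.4, 20.2, 23.5 and 20.7 FPKM at CT6. In both genotypes replicate 1 of CT2 was well above replicate 2 for both genes, and the groups still did not overlap. The log2 changes were 2.55 (SE 0.509, adjusted p = 0.0497) for Nr1d1 and 2.14 (SE 0.356, adjusted p = 0.0184) for Nr1d2 over 24 libraries.

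Among the repressors of CLOCK and BMAL1, Per3 was at 0.262 to 0.341 FPKM in the 4 libraries of CT2 and rose to 4.40 and 1.49 FPKM in WT and 1.5 and 0.825 FPKM in ΔRRE. Its log2 change was 2.18 (SE 0.292, adjusted p = 0.00279 over 24 libraries). Ciart (CHRONO) was at 0.0478 to 0.193 FPKM at CT2 and rose to 5.42 and 0.636 FPKM in WT and 0.427 and 0.344 FPKM in ΔRRE. Its log2 change of 2.17 (adjusted p = 0.0482 over 24 libraries) is on the scale of log2(FPKM + 0.1), which understates changes of genes this low. Per1 was at 0.431 to 0.863 FPKM at CT2 and at 2.74, 1.07, 1.07 and 1.13 FPKM at CT6, without passing either test. Bhlhe40 (DEC1) had a log2 change of 1.22 and groups that did not overlap, and did not pass either test. Per2 and Cry2 had log2 changes of -0.43 and 0.36, and their CT2 and CT6 libraries overlapped. Bhlhe41 was below the limit of 1 FPKM.

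**Figure D1:**
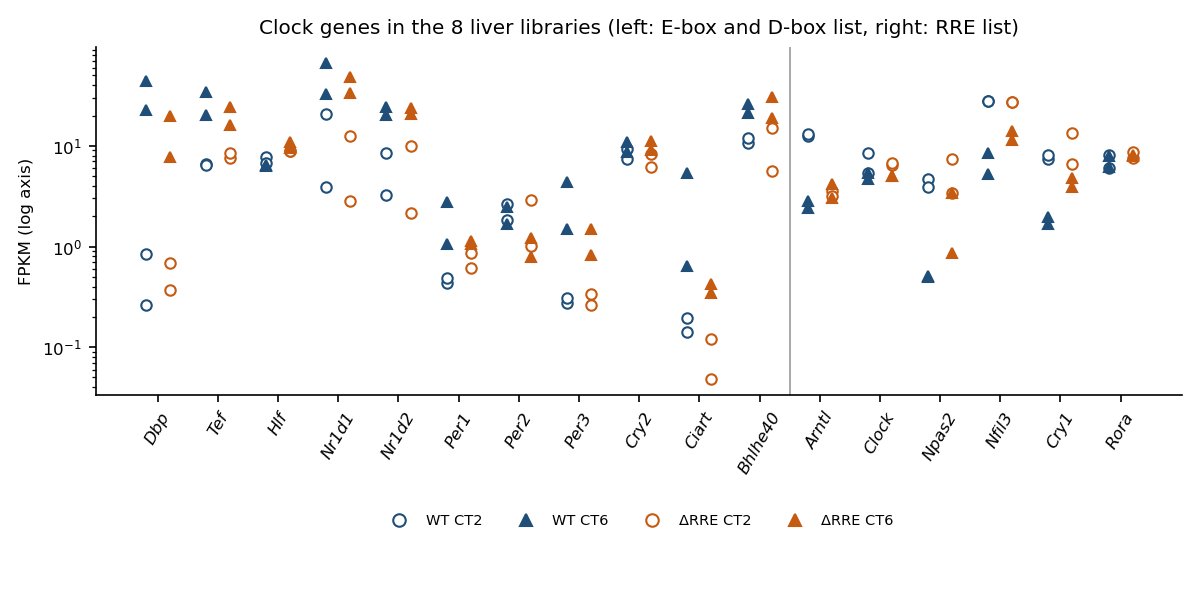
FPKM of 17 clock genes in the 8 libraries, on a log axis, with open circles for CT2 and filled triangles for CT6, WT in blue and ΔRRE in orange. Dbp went from below 1 FPKM in all CT2 libraries to 7.71 to 43.8 FPKM at CT6, Nfil3 and Cry1 fell in both genotypes, and Arntl was lower at CT6 in WT and overlapped in ΔRRE.

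The RRE list held 6 clock genes. In 3 of them, Npas2, Nfil3 and Cry1, the CT6 libraries were all below the CT2 libraries, where 4.48% of all genes were. After rescaling by the median of ratios this held for 2. The median log2 change was -1.33, with -2.02 in WT and -0.74 in ΔRRE. Arntl, Nfil3 and Cry1 fell under the fit of 24 libraries, which averages the genotypes, and the log2 change of Arntl in ΔRRE was 0.08. The same holds for the choice of this list.

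Nfil3 was at 27.8 and 27.6 FPKM in WT and at 27.5 and 27.3 FPKM in ΔRRE at CT2, the closest agreement among these genes. At CT6 it had fallen to 8.58 and 5.25 FPKM in WT and to 11.5 and 14.0 FPKM in ΔRRE. The log2 change was -1.57 (SE 0.249, adjusted p = 0.0118 over 24 libraries), -2.03 in WT and -1.10 in ΔRRE. The change in WT alone passed the test of that contrast (adjusted p = 0.0459).

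Cry1, whose protein represses CLOCK and BMAL1, was at 7.33, 8.10, 6.63 and 13.6 FPKM at CT2 and fell to 1.69 and 1.97 FPKM in WT and to 3.86 and 4.76 FPKM in ΔRRE (log2 change -1.57, SE 0.189, adjusted p = 0.00125 over 24 libraries). The CT6 values of ΔRRE were above those of WT for both Nfil3 and Cry1. Npas2, the partner of BMAL1 that can replace CLOCK, was at 3.42 to 7.41 FPKM at CT2 and at 0.51 and 0.50 FPKM in WT and 0.865 and 3.38 FPKM in ΔRRE at CT6. It did not pass either test (adjusted p = 0.161 and 0.105). Clock and Rora had log2 changes of -0.39 and -0.02, with overlapping groups for both.

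Promoter windows from RefSeq (GRCm38.p6, 250 bases before to 50 bases after each start) were searched on both strands for the letters of the E-box (CACGTG), the E-prime-box (CACGTT), the D-box (TTATGTAA), the RRE core (TAGGTCA), the CRE (TGACGTCA) and the heat shock unit (GAANNTTC). Of the 11244 genes tested, 8226 had a window. The E-box was found in 12.2% of these genes, the E-prime-box in 6.35%, the D-box in 0.729%, the RRE core in 2.53%, the CRE in 3.66% and the heat shock unit in 7.10%. Of the 9 E-box and D-box clock genes with a window, 3 held an E-box, 2 an E-prime-box, 1 a D-box and 1 a CRE. Of the 6 RRE clock genes 2 held the RRE core. Of the 11 tested genes of the E-box and D-box list 9 had a window, and Per2 was among those without one. No match was found for Dbp or Nr1d2. For a gene without a window, the lack of a match does not mean that the motif is absent. The following 30-base stretches are shown because their genes rose or fell under the fit of 24 libraries. The motif is in capitals, the sequence is that of the gene's own strand, and positions are counted back from the start of transcription. On lines named as the opposite strand the capitals are the reverse complement of the motif. A match is a description of the letters and not evidence of binding. None of these matches overlaps another. Further matches in Tef, Ciart, Cry1, Ppp1r3c and Arntl are left out.
Tef, rose, E-box at -127, chr15:81802534-81802563, plus strand: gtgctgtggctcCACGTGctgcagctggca
Nr1d1, rose, E-prime-box on the opposite strand at -28, chr11:98775388-98775417, minus strand: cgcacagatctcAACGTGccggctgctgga
Per3, rose, D-box at -205, chr4:151044852-151044881, minus strand: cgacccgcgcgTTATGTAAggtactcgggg
Per3, rose, D-box at -158, chr4:151044805-151044834, minus strand: cccgcccgcggTTATGTAAcccccgccgtg
Ciart, rose, E-box at -116, chr3:95882327-95882356, minus strand: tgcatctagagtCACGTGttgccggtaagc
Ciart, rose, E-box at -44, chr3:95882255-95882284, minus strand: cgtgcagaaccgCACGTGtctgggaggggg
Cry1, fell, E-box at -60, chr10:85185097-85185126, minus strand: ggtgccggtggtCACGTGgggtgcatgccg
Nfil3, fell, RRE core on the opposite strand at -12, chr13:52981040-52981069, minus strand: tagcgcggcgctcggaacTGACCTActaac
Lonrf3, fell, E-box at -45, chrX:36328352-36328381, plus strand: cgtggtaggagtCACGTGgttgcgttttat
Ppp1r3c, fell, E-box at -104, chr19:36736691-36736720, minus strand: gagggaccggttCACGTGatctggctttga

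The E-box occurred both in genes that rose (Tef, Ciart) and in genes that fell (Cry1, Lonrf3, Ppp1r3c). It was held by 2 of the 7 genes with a window among those that rose over 24 libraries and by 3 of the 17 among those that fell. Both D-box matches within the E-box and D-box list were in Per3.

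Outside the clock lists, Pcsk4 and Slc35d1 rose over 24 libraries. Pcsk4, a proprotein convertase gene, was at 3.07 to 4.02 FPKM at CT2 and at 9.34, 6.80, 8.12 and 5.32 FPKM at CT6, with no overlap (log2 change 1.01, SE 0.152, adjusted p = 0.00766). Slc35d1, a nucleotide sugar transporter gene of the endoplasmic reticulum, rose by a small amount that was close in all libraries, from 26.8 to 29.7 FPKM at CT2 to 35.3 to 37.8 FPKM at CT6 (log2 change 0.40, adjusted p = 0.0497).

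Among the genes that fell over 24 libraries, Chka, which encodes the choline kinase of phosphatidylcholine synthesis, was at 66.2 and 68.7 FPKM in WT and at 36.6 and 63.9 FPKM in ΔRRE at CT2, and fell to 14.1 and 18.3 FPKM in WT and to 18.3 and 39.4 FPKM in ΔRRE. Its log2 change was -1.45 (adjusted p = 0.0197), and the highest CT6 library of ΔRRE lay above the lowest of CT2. Ppard, the nuclear receptor PPARδ, was at 4.19 to 11.9 FPKM at CT2 and at 1.76 to 4.53 FPKM at CT6 (log2 change -1.80, adjusted p = 0.0405). Here too 1 ΔRRE library of CT6 reached the CT2 range.

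Ppp1r3c, a subunit that directs protein phosphatase 1 to glycogen, fell from 44.0, 56.2, 33.2 and 66.8 FPKM to 12.5, 13.1, 19.1 and 31.2 FPKM (log2 change -1.45, adjusted p = 0.0462). Its groups did not overlap. Lonrf3, a RING finger protein gene, fell from 0.98 to 2.30 FPKM to 0.315 to 0.67 FPKM (log2 change -1.70, adjusted p = 0.00279), with no overlap.

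Lgalsl (a galectin-like gene), Zbtb40 (a zinc finger gene), Dusp6 (a phosphatase that inactivates ERK), Tnfaip2, Irgq, Itga5 (the fibronectin receptor subunit integrin α5), Gon4l, Nt5m (a mitochondrial nucleotidase), Rbm10 (a splicing factor), Pxmp4 (a peroxisomal membrane protein) and Pnkd also fell over 24 libraries. Their log2 changes lay between -1.24 for Lgalsl and -0.47 for Pnkd. Dusp6 was at 11.3 to 17.9 FPKM at CT2 and at 4.92 to 8.42 FPKM at CT6. Itga5 was at 7.78 to 8.79 FPKM at CT2 and at 4.27 to 5.73 FPKM at CT6. In 10 of these 11 genes, all but Pxmp4, the groups did not overlap. Gm25047, a small nuclear RNA gene just downstream of Lonrf3, was listed at 1.94 to 2.78 FPKM at CT2 and at 0 to 0.951 FPKM at CT6 (adjusted p = 0.0116).

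**Figure D2:**
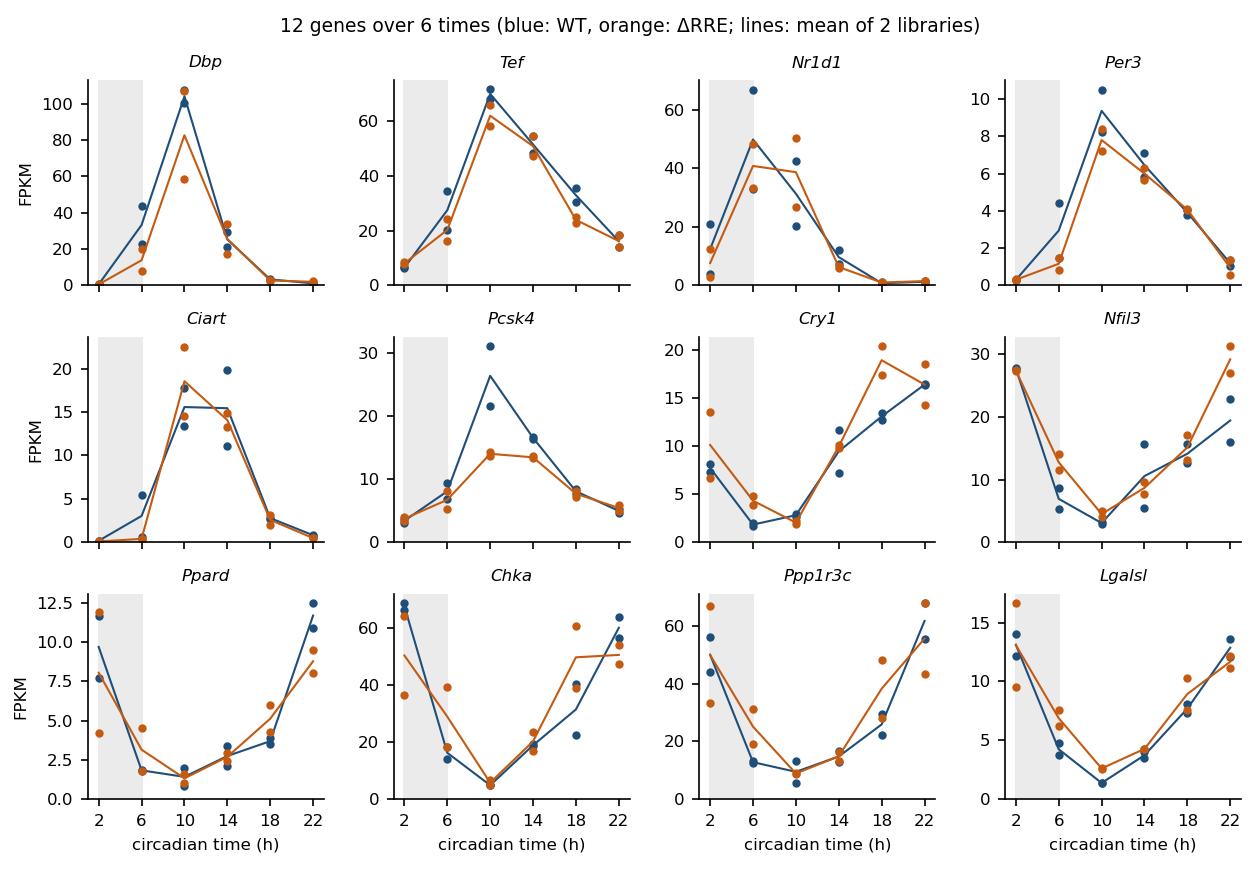
FPKM of 12 genes that passed the test over 24 libraries, at 6 circadian times, with 1 point per library, lines through the mean of 2 libraries and the interval from CT2 to CT6 shaded. Dbp, Tef, Per3 and Pcsk4 were still higher at CT10 than at CT6, and Nfil3, Chka and Lgalsl were still lower.

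Whether the genotypes agreed was read from the WT contrast and the ΔRRE contrast, whose changes share no library. The p-values of both contrasts rest on a spread estimated from all 8 libraries. A choice by p in 1 genotype therefore also used the libraries of the other. Over all 11244 genes the changes had the same sign in 60.1%, with a Pearson's r of 0.243 and a Spearman's rho of 0.270 across genes, which are not independent replicates. Agreement was closer among genes that moved in 1 genotype. Of the 180 genes that were higher at CT6 in WT by at least 1.5-fold at an unadjusted p under 0.05, 125 (69.4%) were also higher in ΔRRE, where 41.5% of all genes were. Of the 295 that were lower in WT, 229 (77.6%) were lower in ΔRRE, where 58.5% of all genes were. Chosen in ΔRRE instead, 130 of 192 higher genes (67.7%) were higher in WT, beside 45.9% of all genes, and 256 of 317 lower genes (80.8%) were lower in WT, beside 54.1%. The changes were smaller in the genotype whose change was not used for the choice. The WT-chosen genes had a median log2 change of 1.0 in WT and 0.32 in ΔRRE for those higher, and -0.87 and -0.36 for those lower.

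In 42 genes (0.374%) both genotypes were higher at CT6 by at least 1.5-fold at an unadjusted p under 0.05, in 64 genes (0.569%) both were lower, and in 8 genes they moved in opposite directions. The p-values of the genotypes share the same estimate of spread here too. Of the 106 genes with a shared direction, 57 (53.8%) had the larger change in WT, beside 47.0% of all genes. Among the 28 genes described from the fit of 24 libraries, 23 (82.1%) had the larger change in WT. The exceptions were Nr1d1, Nr1d2, Lonrf3, Nt5m and Rbm10. No gene passed the test of the difference between genotypes in that fit (limma, smallest adjusted p 0.139). Before adjustment 301 genes lay below 0.05. If the genotypes differed in no gene, 562.2 would lie there, so this count is no sign of differences between them.

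**Figure D3:**
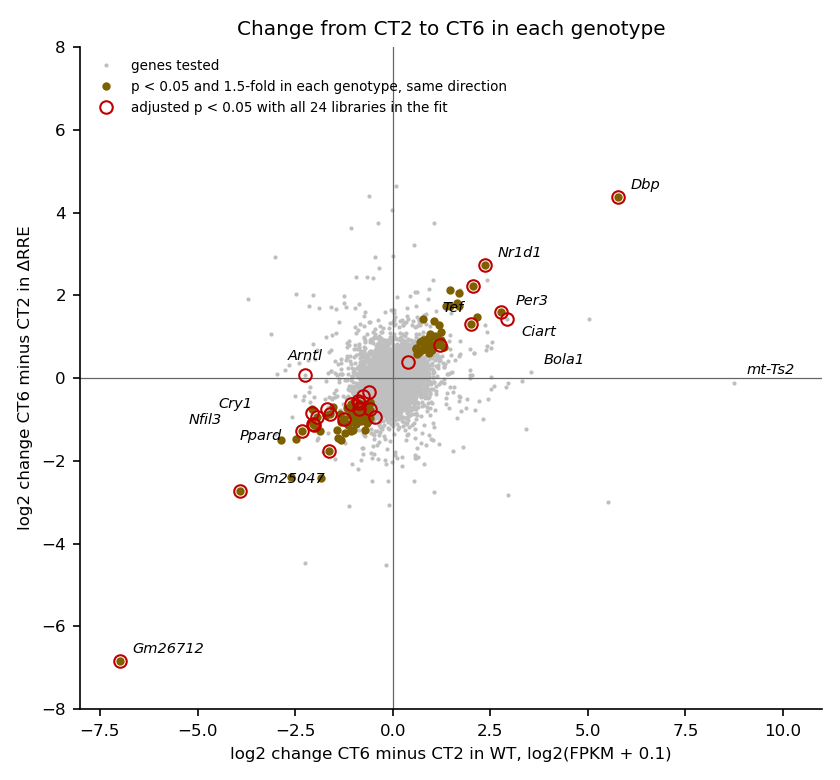
The log2 change from CT2 to CT6 of 11244 genes in WT (horizontal) and in ΔRRE (vertical), with the 106 genes of shared direction filled and 28 genes that passed over 24 libraries circled. Dbp lies far out on the rising side and Gm26712 on the falling side of both genotypes, while Arntl, Bola1 and mt-Ts2 lie near 0 in ΔRRE.

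The following genes were taken from these 106 after their values had been seen, and none of them passed either adjusted test. They were chosen by their change in these same libraries, so a lack of overlap between the times is no separate support. Socs3, an inhibitor of JAK and STAT signalling, was at 1.31 to 3.81 FPKM at CT2 and at 9.25, 7.4, 6.16 and 6.71 FPKM at CT6 (log2 1.73, adjusted p = 0.148). Every CT6 library was above every CT2 library. Nrg4, a secreted growth factor gene, had a log2 difference of 1.08 and Foxq1, a forkhead factor gene, one of 1.87.

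Ulk1, the kinase that starts autophagy, was at 9.86 to 13.9 FPKM at CT2 and at 19.8 to 23.7 FPKM at CT6 (log2 0.88, adjusted p = 0.129). Flcn, a regulator of mTORC1 at the lysosome, was at 4.07 to 6.62 FPKM at CT2 and at 9.17 to 14.4 FPKM at CT6 (log2 1.01, adjusted p = 0.158). Slc7a2, a cationic amino acid transporter gene, was at 47.8 to 58.8 FPKM at CT2 and at 76.7 to 121 FPKM at CT6, and Upp2, a uridine phosphorylase gene, had a log2 difference of 1.04. In none of these did the times overlap, which the choice of the genes favours.

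Among the lower genes, Ppp1r3b, another glycogen-targeting subunit of protein phosphatase 1, was at 48.7 to 100 FPKM at CT2 and at 17.5 to 39.8 FPKM at CT6 (log2 -1.56, adjusted p = 0.158). G0s2, an inhibitor of the lipase ATGL, was at 47.6 to 69.9 FPKM at CT2 and at 15.8 to 43.0 FPKM at CT6 (log2 -1.30, adjusted p = 0.148). Acsl1, a long-chain acyl-CoA synthetase gene, was at 180 to 263 FPKM at CT2 and at 124 to 154 FPKM at CT6 (log2 -0.66, adjusted p = 0.148). Avpr1a, the vasopressin receptor, was at 14.6 to 20.0 FPKM at CT2 and at 7.80 to 10.5 FPKM at CT6. All 4 genes were lower in every CT6 library, which the choice of the genes favours as well.

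The 16 libraries of CT10, CT14, CT18 and CT22 were not used to choose genes by the overlap of CT2 and CT6, and they gave a separate reading of these genes. Of the 223 genes that were higher in every CT6 library, 191 (85.7%) had a higher mean at CT10 than at CT22, beside 55.8% of all genes. Of the 504 that were lower, 328 (65.1%) were lower at CT10 than at CT22, beside 44.2% of all genes. Among the 4 later times, 158 of the 223 (70.9%) were highest at CT10, beside 31.9% of all genes, whereas 55 of the 504 (10.9%) were. Of the 42 genes higher in both genotypes, 40 (95.2%) were higher at CT10 than at CT22, and of the 64 lower ones 51 (79.7%) were lower.

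The clock genes differed in how far they had moved by CT6. Dbp was at 101 and 108 FPKM in WT and at 107 and 58.5 FPKM in ΔRRE at CT10, several times its level at CT6 in each genotype. Ciart was at 13.4 to 22.5 FPKM at CT10. Nr1d1 had already reached its highest WT mean at CT6. Arntl in WT went on from 2.42 and 2.86 FPKM at CT6 to 0.195 and 0.0919 FPKM at CT10, and in ΔRRE it was at 2.50 and 2.1 FPKM at that time.

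The other gene lists moved little, and of their members Dusp6 alone passed the test over 24 libraries. The counts of signs stand beside those of all genes. Of all genes 54.1% were lower in WT and 58.5% in ΔRRE, and 60.1% had the same sign in both. All 21 tested genes of heat shock and chaperones had a negative log2 change, with a median of -0.28, and the sign of the pooled change held in all 21 after either rescaling. In 17 of the 21 both genotypes had the same sign. The CT6 libraries of 5 of them were all below those of CT2, where 4.48% of all genes were, namely Hspa1b, Hspa1a, Hsph1, Bag3 and Dnajb1. After rescaling by the median of ratios this held for 4. Hspa1b, an inducible HSP70 gene, was at 3.41, 7.51, 4.32 and 8.90 FPKM at CT2 and at 0.919, 1.94, 1.80 and 0.626 FPKM at CT6 (log2 -2.13, adjusted p = 0.148). Hspa1a is a near copy of Hspa1b, and how fragments were divided between them is not known. In the list of ER folding, Dnajb9, a cochaperone of BiP, was at 23.2 to 58.7 FPKM at CT2 and at 10.1 to 19.2 FPKM at CT6 without overlap (adjusted p = 0.235), and the list's median was -0.09. Of its 26 members 19 had a negative and 7 a positive change, and 12 were positive after rescaling by the median of ratios. The median was 0.03 in WT and -0.26 in ΔRRE, and 13 of the 26 had the same sign in both.

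All 18 tested genes of fatty acid synthesis had a negative change as well, with a median of -0.32 and the same sign in all 18 after either rescaling, and the groups of every one of them overlapped. Acacb (acetyl-CoA carboxylase 2) had a difference of -0.79. Of 25 genes of cholesterol synthesis and uptake, 16 were negative with a median of -0.12 and none was free of overlap. That count is not far from the share of all genes, 54.1% lower in WT and 58.5% in ΔRRE. Their medians had opposite signs in the genotypes, 0.21 in WT and -0.35 in ΔRRE. The same sign in both was seen in 8 of the 25, beside 60.1% of all genes. The difference between genotypes was not tested for the list. Of 29 PPARα targets and genes of fatty acid oxidation, the median was 0.01. The groups did not overlap for 2 of them, Pdk4 and Plin5, both lower, a share near the 4.48% of all genes. Pdk4, the kinase that inhibits pyruvate dehydrogenase, was at 7.48 to 10.2 FPKM at CT2, at 3.23 and 0.738 FPKM in WT CT6 and at 5.17 and 6.09 FPKM in ΔRRE CT6. In gluconeogenesis and fasting Pck1 (phosphoenolpyruvate carboxykinase) had a log2 difference of 1.26 with overlapping groups, and the median of 15 genes was close to 0.

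Of 21 acute-phase genes 20 were positive, with a median of 0.28, where 45.9% of all genes were in WT and 41.5% in ΔRRE. Socs3 and Apcs were higher in every CT6 library, where 1.98% of all genes were. In 12 of the 21 the genotypes had the same sign, close to the 60.1% of all genes. The medians were 0.13 in WT and 0.52 in ΔRRE, and Saa2 was at 15.8 and 18.8 FPKM in WT CT6 and at 70.7 and 255 FPKM in ΔRRE CT6. Of 26 genes of ribosome biogenesis 20 were negative with a median of -0.15, where 54.1% of all genes were in WT and 58.5% in ΔRRE. In 2 of them, Nolc1 and Nop2, all CT6 libraries were lower, where 4.48% of all genes were. The medians were -0.02 in WT and -0.26 in ΔRRE. Clock outputs in liver had a median of 0.01 over 23 genes, and 12 of the 23 had the same sign in both genotypes, beside 60.1% of all genes. In every CT6 library Lpin1 was higher and Avpr1a and Ces2e were lower, shares not far from the 1.98% and 4.48% of all genes. Usp2, a clock-controlled deubiquitinase gene, was at 0.206 and 0.555 FPKM in WT CT2, 5.01 and 1.32 FPKM in WT CT6, 0.679 and 1.15 FPKM in ΔRRE CT2 and 1.42 and 0.39 FPKM in ΔRRE CT6. The cold-inducible genes Rbm3 and Cirbp had log2 differences of 0.62 and 0.36 with overlapping groups. The medians of the lists of bile acids, xenobiotic metabolism, antioxidant genes, the growth hormone axis, splicing factors, glucocorticoid response, immediate-early genes and ATF4 targets lay between -0.11 and 0.08, and that of 8 cell cycle genes was 0.20.

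**Figure D4:**
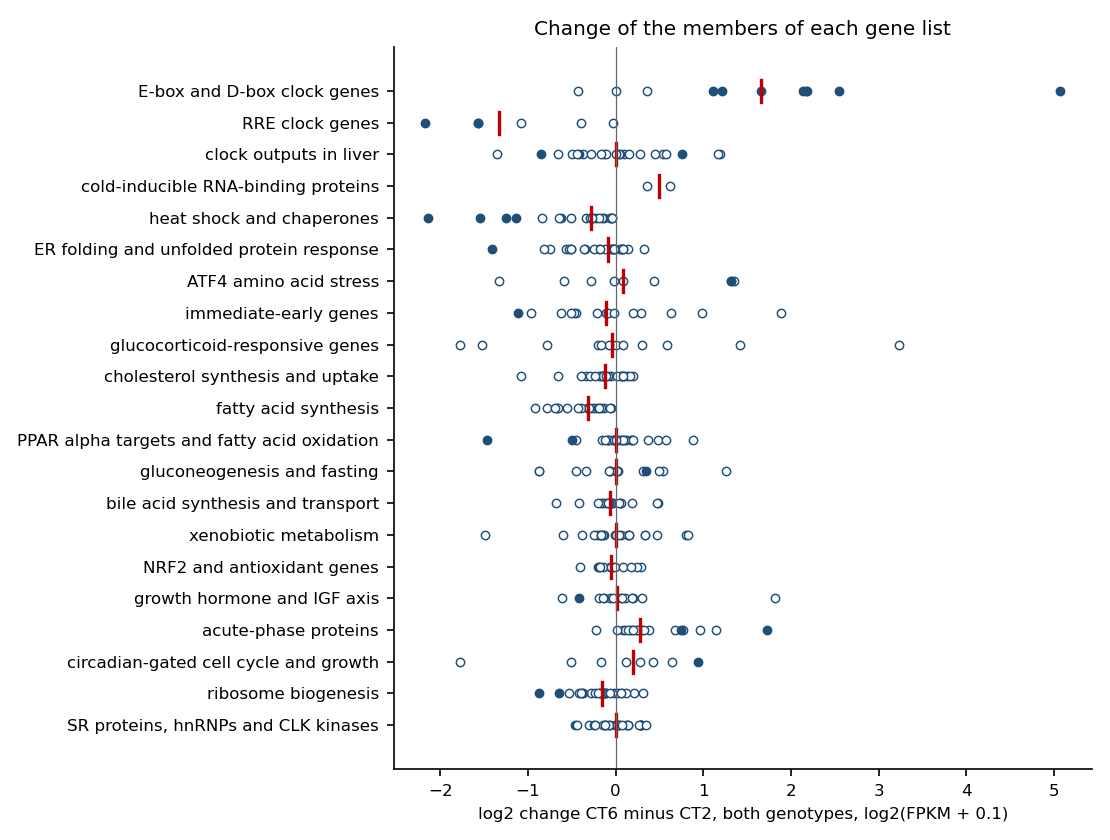
The log2 change from CT2 to CT6 with both genotypes together, 1 point per tested member of each gene list, filled where the 4 CT6 libraries did not overlap the 4 CT2 libraries, with red lines at the medians. The E-box and D-box list has its median at 1.66 and the RRE list at -1.33, and the other lists lie within 0.5 of 0.

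Markers of liver cell types were summed in each library. The hepatocyte markers summed to 45379 to 49493 FPKM at CT2 and to 37697 to 53561 FPKM at CT6, and Kupffer cell markers to 80.7 to 201 FPKM and 77.6 to 191 FPKM. The Kupffer cell markers went from 108 and 201 FPKM to 191 and 77.6 FPKM in WT and from 80.7 and 91.3 FPKM to 111 and 115 FPKM in ΔRRE. Their median log2 change was -0.45 in WT and 0.47 in ΔRRE. Of the 12 markers 1 had the same sign in both, beside 60.1% of all genes. Stellate cell and fibroblast markers summed to 61.6 to 87.6 FPKM at CT2 and to 48.1 to 56.7 FPKM at CT6, so every CT6 library was below every CT2 library. Dcn, with a mean of 37.8 FPKM over the 24 libraries, was the largest part of this sum. Dcn and Rgs5 were lower in every CT6 library. After rescaling by the median of ratios no member was, and after scaling to a common sum 1 was. Their 7 tested members all had a negative change, with a median of -0.45, and 1 of them turned positive after rescaling by the median of ratios. Sinusoidal endothelium markers summed to 48.1 to 65.0 FPKM and 37.2 to 58.0 FPKM, cholangiocyte markers to 29.7 to 42.2 FPKM and 21.3 to 32.0 FPKM, lymphocyte markers to 6.28 to 12.1 FPKM and 2.19 to 6.87 FPKM, neutrophil markers to 2.92 to 7.44 FPKM and 1.69 to 4.97 FPKM, and erythrocyte markers to 537 to 1221 FPKM and 917 to 1354 FPKM. Cd3d, Ms4a1, Cd8a, Mpo, Ly6g and Cftr had means under 0.1 FPKM. In bulk tissue fewer cells of a type and less RNA per cell cannot be told apart. The part of these markers in the changes of other genes was not tested.

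A few genes switched between a low and a high level from library to library. Of the genes tested 22 had a gap of at least 8-fold in their 24 values with at least 2 libraries on each side, and Gm26712 was one of them. It was at 34.2 and 37.9 FPKM in WT and 33.8 and 40.0 FPKM in ΔRRE at CT2 and at 0.169 to 0.259 FPKM in the 4 libraries of CT6 (log2 change -6.91, SE 0.141, adjusted p = 6.56e-08). Over the 24 libraries it was at the high level in 7 and at the low level in 17, and at CT10 it was at 0.219 FPKM in one WT replicate and at 31.7 FPKM in the other. Its adjusted p was 0.0482 with the spread of 24 libraries. Gm26712 (chr6:57689433-57689649 of GRCm38, minus strand) is a transcribed pseudogene whose 217 exonic bases lie within exons of the protein-coding gene Pyurf on the same strand. Pyurf was at 6.83 and 6.22 FPKM at CT2 and at 7.35 and 7.73 FPKM at CT6 in WT. In ΔRRE it was at 4.96 and 6.31 FPKM at CT2 and at 7.25 and 6.48 FPKM at CT6. Within each genotype Pyurf was therefore lower at CT2 than at CT6. At the later times Pyurf was at 4.11 to 5.19 FPKM in libraries where Gm26712 was high. It was at 5.09 to 8.87 FPKM in those where Gm26712 was low, so these ranges overlapped. A link between the levels of Pyurf and Gm26712 was not tested. Fragments of the pseudogene and of Pyurf cannot be told apart in this stretch, so the value of Gm26712 is uncertain.

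In the fit with 1 mean per group, 6 genes (0.0534%) passed in WT alone. Dbp, mt-Ts2 and Bola1 rose and Arntl, Nfil3 and Gm26712 fell. In ΔRRE alone Gm26712 passed (0.00889%). The difference between genotypes passed for mt-Ts2 and Bola1 (0.0178%). Before adjustment 297 genes (2.64%) lay below 0.05 for this difference, where 562.2 would lie if the genotypes differed in no gene. mt-Ts2 is a mitochondrial serine tRNA gene (chrM:11613-11671, plus strand). It was at 174 and 272 FPKM in WT CT6 and at 0.345 to 0.494 FPKM in the 6 other libraries (difference of changes -8.85, SE 0.413, adjusted p = 0.000314). At CT22 one replicate of each genotype was at the high level, 200 FPKM in WT and 187 FPKM in ΔRRE, and the other at 0.456 and 0.490 FPKM. The adjoining tRNA genes mt-Th and mt-Tl2 were at 130 to 189 FPKM and 196 to 300 FPKM in the 4 WT libraries.

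Bola1, a gene of mitochondrial iron-sulfur protein maturation, was at 1.11 and 1.21 FPKM in WT CT2 and at 13.5 to 17.0 FPKM in the other 6 libraries (difference of changes -3.40, SE 0.237, adjusted p = 0.00341). At each of CT10, CT14, CT18 and CT22 one WT library was at 1.46 to 2.00 FPKM and the other at 9.63 to 14.7 FPKM, while the 12 ΔRRE libraries were at 12.4 to 17.1 FPKM. For Gm26712, mt-Ts2 and Bola1, replicates of one group therefore stood at different levels at some of the other times.

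**Figure D5:**
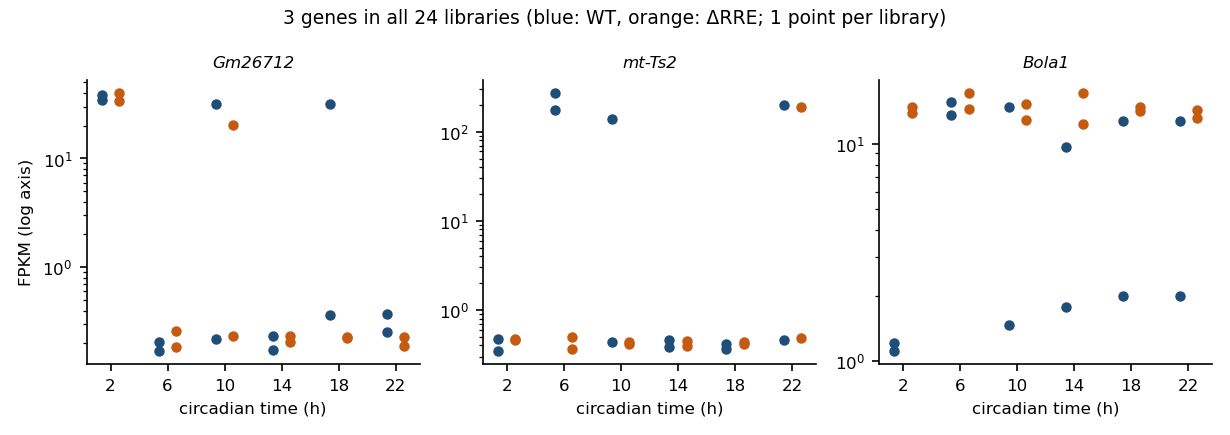
FPKM of Gm26712, mt-Ts2 and Bola1 in all 24 libraries on log axes, with WT in blue and ΔRRE in orange. Each gene stood at a high and a low level, and libraries of the same genotype and time stood at different levels at CT10 and in WT at CT18 for Gm26712, at CT22 and in WT at CT10 for mt-Ts2, and at CT10 to CT22 in WT for Bola1.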

How the data were processed

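Liver RNA of male mice was sequenced after poly(A) selection, with directional libraries. The authors deposited 1 table of FPKM per library, with replicates not pooled. Per the labels, reads were processed with Trimmomatic 0.39, HISAT2 2.1.0 and StringTie 1.3.5 on mm10. A table of the whole series was not used, nor were counts, so depth and counting error are unknown.

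From the FPKM, log2(FPKM + 0.1) was fitted with limma 3.58.1 in R 4.3.3 (intensity trend, Benjamini-Hochberg adjustment) for genes averaging 1 FPKM or more across 24 libraries, with genotype and time as terms in the 8 libraries of CT2 and CT6. A fit with 1 mean per group gave each genotype alone and their difference. Adjusted p-values in the text are from limma, and those "over 24 libraries" use 1 mean for each of the 12 groups. The steps were tested on simulated data. Alternatives were another pseudocount, filter, scaling, variance prior, set of libraries or threshold, a replicate block and leaving out each library.

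Named were the 15 largest rises and falls at an adjusted p under 0.05 (Gm and Rik symbols left out), all members of the clock lists, up to 4 called or 2 largest members of other lists, and called interaction genes. Genes called over 24 libraries (with their promoter stretches), list members free of overlap and Gm26712 were added after their values were seen. Members and lists were chosen with earlier results of these data known. Some genes, among them 2 called over 24 libraries, are not reported here. Loci are from GENCODE M21, promoters from RefSeq. Figures used matplotlib 3.10.9.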

Additional observations from a re-analysis of the deposited data

Results flagged for a closer look

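Chance flags about 1 in 20 groups of 4 values drawn from 1 normal distribution. The groups here join 2 WT and 2 ΔRRE libraries and include genes chosen by their change, so that rate need not apply. In a group of 4 libraries of 1 time, 1 library stood far from the other 3 in 15 of 148 groups examined. At CT2 these were Gadd45g at 21.8 FPKM in WT replicate 1 (others 1.85 to 2.63 FPKM), Chka at 36.6 FPKM in ΔRRE replicate 1 (others 63.9 to 68.7 FPKM), mt-Ts2 at 0.345 FPKM in WT replicate 1 (others 0.462 to 0.478 FPKM), Gm25047 at 2.78 FPKM in ΔRRE replicate 1 (others 1.94 to 2.04 FPKM) and Nt5m at 7.23 FPKM in ΔRRE replicate 2 (others 6.21 to 6.34 FPKM). At CT6, WT replicate 1 stood apart for Per1 at 2.74 FPKM (others 1.07 to 1.13 FPKM), Hyou1 at 44.9 FPKM (others 19.0 to 21.9 FPKM) and Cyp2b9 at 3.02 FPKM (others 0.0727 to 0.132 FPKM). WT replicate 2 of CT6 stood apart for Rora at 6.16 FPKM (others 7.84 to 8.06 FPKM), Cirbp at 17.2 FPKM (others 29.8 to 30.7 FPKM), Cidec at 2.21 FPKM (others 0.682 to 0.809 FPKM) and Irs2 at 1.01 FPKM (others 3.0 to 3.43 FPKM). ΔRRE replicate 1 of CT6 stood apart for Asns at 0.771 FPKM (others 2.9 to 3.05 FPKM) and Nop2 at 3.98 FPKM (others 4.77 to 4.92 FPKM), and ΔRRE replicate 2 for Ppard at 4.53 FPKM (others 1.76 to 1.84 FPKM).

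The change from CT2 to CT6 differed between genotypes by the interaction test of limma for mt-Ts2 (-8.85 on the log2 scale, ΔRRE minus WT) and Bola1 (-3.40). With the spread of all 24 libraries neither passed.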

How the results depend on the processing

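The counts of called genes were small and moved with the processing. The numbers higher and lower at CT6 were 1 and 1, and became 0 and 2 with no filter on low values (28380 genes tested), 8 and 22 with all 24 libraries, 1 and 2 with a variance prior without trend, 2 and 1 with the replicate block, and 0 to 3 and 1 to 6 when 1 library was left out. In WT alone the 3 higher and 3 lower genes became 39 and 28 with no filter, 4 and 8 with all 24 libraries, 2 and 1 from the 4 libraries of that genotype alone, and 2 to 5 and 1 to 7 with 1 library left out. In ΔRRE alone the 0 and 1 became 8 and 21 with no filter, 1 and 0 with all 24 libraries, and 0 to 4 and 1 to 3 with 1 library left out. The 2 genes that differed between genotypes became 57 with no filter, 0 with all 24 libraries and 2 to 6 with 1 library left out. The median change of all genes was 0 with no filter and -0.000367 after the median of ratios. The cause was not tested. Dbp did not pass with no filter (adjusted p = 0.187) or without any 1 of 3 libraries. Changes near 0 turned sign: the log2 change of Hlf was -0.0177 with a common sum and -0.0764 to 0.0829 with 1 library left out, the log2 change of Rora was 0.0124 after the median of ratios and -0.109 to 0.0526, and the log2 change of Nqo1 was -0.0609 to 0.495 with 1 library left out. Of the comparisons of named genes with their alternatives, 1264 kept direction and side of the threshold.

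Replicates with the same number did not deviate together in every pair of groups (correlations from -0.119 to 0.206), so the replicate block is given here only. With no counts deposited, the depth behind low values such as those of Ciart and Per3 is unknown, and with 2 libraries per group small changes could not be resolved.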

Other observations

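Among members of lists that passed no test, some had large differences that overlapped between the times. Mt2, a metallothionein gene, had a log2 difference of 3.23 and Cdkn1a (p21) one of -1.77, both with overlapping groups. Chac1, an ATF4 target that degrades glutathione, was higher in every CT6 library (log2 1.32), while Asns, another ATF4 target, had a difference of 1.35 and overlapped. Elovl3, a fatty acid elongase gene under clock control, had a difference of -1.35 with overlap.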
